A study of Mus musculus with 7 samples.

Results

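Regulatory T cells are CD4+ T cells that restrain immune responses, and 7 genes that mark them in mice were followed here across whole spleens. The genes are Foxp3, Ctla4, Tnfrsf18, Tnfrsf4, Lrrc32, Gpr83 and Itgae, chosen by name with earlier results of these data known. All 7 were found among the 24062 genes of the deposited tables. RNA was sequenced from 3 enlarged spleens of mice with the genotype Vav1-iCre;Brca1F22-24/F22-24, called mutant below, and from 4 spleens of Brca1+/+ mice given as C57BL6, called wild type. All mice were 2 to 3 months old. Vav1-iCre drives the Cre recombinase in blood cells, so the mutation is aimed at T cells and the other blood lineages of the spleen rather than at its stroma. The labels give the recombinase, the altered Brca1 allele and the enlargement for mutant spleens only, and the strain for wild type only, and effects of these cannot be told apart. The labels number the spleens within each group but give no matching of animals, and the p-values cover the spread among these 7 spleens alone.

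Foxp3 encodes the transcription factor that defines the lineage, and mice without it develop fatal autoimmunity. Ctla4 is the inhibitory receptor that competes with the costimulatory receptor Cd28 for Cd80 and Cd86, and Tnfrsf18 (GITR) and Tnfrsf4 (OX40) are costimulatory receptors of the TNF receptor family. Lrrc32 (GARP) tethers latent TGF-beta to the cell surface, Gpr83 is a G protein-coupled receptor enriched in these cells, and Itgae (CD103) is the integrin chain that pairs with Itgb7 to bind E-cadherin. Apart from Foxp3 none is confined to regulatory T cells: activated T cells carry Ctla4, Tnfrsf18 and Tnfrsf4, some CD8+ T cells and dendritic cells carry Itgae, and platelets and endothelium carry Lrrc32.

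Total counts were 30660980 to 51680976 in the mutant libraries and 26889712 to 63612532 in the wild-type libraries. Across genes, which are not independent replicates, log2 CPM correlated at 0.929 to 0.952 between mutant libraries, 0.956 to 0.987 between wild-type libraries and 0.783 to 0.875 between the groups. Levels are given in CPM, read counts relative to a library size scaled by TMM, a method that aligns libraries on the bulk of their genes. Of 15188 genes with enough counts to test, 57.4% passed an adjusted p of 0.05 in the quasi-likelihood test of edgeR and are called below, 28.9% lower and 28.5% higher in the mutant. Scaled by library size alone, higher genes made up 38.1% of calls in place of 49.7%. Brca1 itself stood at 67.6, 47.1 and 42.7 CPM in mutant spleens and at 46.2, 72.8, 15.7 and 20.2 CPM in wild-type spleens, and counts over the whole gene do not show a loss of its last exons. Of 8 spleen tissue genes, all 8 were detected in every library and 5 were lower in the mutant. Spic, Vcam1 and Slc40a1 were not called. The sums were 193 to 1231 CPM in mutant and 1935 to 2432 CPM in wild-type spleens. They include Cr2, also on the B cell list below, at 1.11 to 47 CPM in mutant and 533 to 664 CPM in wild-type spleens.

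The promoters of Foxp3, which fell most of the 7 genes, and of Ctla4 and Gpr83, whose means were higher in the mutant, are shown because the log2 changes of the last pair and of Foxp3 differ in sign. RefSeq sequences of build GRCm38.p6, from 250 bases before to 50 after the annotated start, were at hand for 5 of the 7 genes, with 2 starts for Foxp3. Capitals mark TATAAA, the core of the TATA box, a motif chosen after these sequences were seen.
Foxp3, first start, chrX:7579426-7579725, plus strand: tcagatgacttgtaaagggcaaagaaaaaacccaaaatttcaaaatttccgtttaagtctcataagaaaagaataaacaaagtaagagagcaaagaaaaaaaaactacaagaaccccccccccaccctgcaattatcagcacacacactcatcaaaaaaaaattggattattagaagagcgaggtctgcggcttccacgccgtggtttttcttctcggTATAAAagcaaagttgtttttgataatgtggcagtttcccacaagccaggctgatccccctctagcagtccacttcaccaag
Ctla4, chr1:60908775-60909074, plus strand: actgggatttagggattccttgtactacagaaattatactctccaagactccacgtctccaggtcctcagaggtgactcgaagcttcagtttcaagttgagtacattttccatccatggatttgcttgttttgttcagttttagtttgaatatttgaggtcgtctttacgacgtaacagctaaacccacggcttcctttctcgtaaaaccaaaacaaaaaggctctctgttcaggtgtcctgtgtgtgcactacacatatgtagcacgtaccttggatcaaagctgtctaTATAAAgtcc
Gpr83, chr9:14859960-14860259, plus strand: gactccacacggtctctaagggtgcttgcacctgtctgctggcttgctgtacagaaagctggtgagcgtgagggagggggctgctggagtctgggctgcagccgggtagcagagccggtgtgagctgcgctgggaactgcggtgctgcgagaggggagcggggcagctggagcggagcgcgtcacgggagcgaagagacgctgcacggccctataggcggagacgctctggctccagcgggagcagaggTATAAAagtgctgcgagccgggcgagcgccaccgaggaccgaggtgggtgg
The motif begins 32 bases before the start of Foxp3, 1 base before that of Gpr83 and at base 41 from that of Ctla4. Distances are from the RefSeq start of each window. For Gpr83 and Tnfrsf18 that start lies before the start of the counted gene given below, so the motif lies farther from the latter. On either strand it is held by 13.6% of 32851 promoter windows, and it was not in the windows of the second Foxp3 start, Tnfrsf4 or Tnfrsf18. The letters TGTTTAC (forkhead), TGTGGT (Runx), TTCNNNGAA (STAT), TGACTCA (AP-1) and CAGGAA (Ets) were searched on both strands. The STAT letters, which read alike on both strands, begin 139 bases before the second Foxp3 start and 99 bases before that of Tnfrsf18. The other 4 were in none of the 6 windows. Of all windows, 3.6% hold the forkhead letters, 16.8% the Runx, 8.3% the STAT, 5.2% the AP-1 and 30.6% the Ets letters. Such letters describe the sequence only.

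Foxp3 was nearly undetected in every mutant spleen. It stood at 0.474, 0.317 and 0.163 CPM in mutants 1 to 3, against 21.1, 20.4, 30.8 and 14.7 CPM in wild-type spleens 1 to 4. The highest mutant lay far below the lowest wild type, and the mutant values rested on 23, 9 and 5 counts against 552 to 1394 counts in wild type. Counting error alone gives 95% exact Poisson intervals of 0.301 to 0.712, 0.145 to 0.602 and 0.0529 to 0.38 CPM for the mutants, which overlap one another. The mean was 0.318 ± 0.156 CPM in mutant and 21.8 ± 6.71 CPM in wild-type spleens (SD, n = 3 and 4), a log2 change of -6.04 (SE 0.47, adjusted p = 1.69e-04, edgeR) or 65.9-fold lower. Ordered from the largest decrease, Foxp3 was number 80 of the 15188 genes tested. In bulk tissue, fewer cells of a type and less RNA per cell cannot be told apart, here and for each gene that follows. The gene (ENSMUSG00000039521.13, chromosome X, 7579676 to 7595243, plus strand, mm10) shares 12.9% of its exon bases with Ccdc22 on the other strand and 18.6% with Flicr on the same strand in GENCODE M21. Ccdc22 stood at 30.4, 43.7 and 32.1 CPM in mutant and 27.0 to 35.7 CPM in wild-type spleens (adjusted p = 0.647, edgeR), and because reads in the shared exons could count for either gene, the exact level of Foxp3 is uncertain.

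The TNF receptor genes were both lower. Tnfrsf4 stood at 1.73, 2.29 and 0.879 CPM in mutant spleens, against 9.76, 11, 11.6 and 8.29 CPM in wild-type spleens. The groups were well apart, with a log2 change of -2.64 (SE 0.37, adjusted p = 8.62e-04, edgeR). Tnfrsf18 stood at 9.73, 8.49 and 3.16 CPM in mutant spleens, against 17.8, 18.5, 24.3 and 14.4 CPM in wild-type spleens. Here too every mutant was below every wild type, with mutant 3 the lowest, and the log2 fold change was -1.39 (SE 0.40, adjusted p = 0.0182, edgeR). The genes lie 9.8 kb apart on chromosome 4 (Tnfrsf4 at 156013695 to 156016589, Tnfrsf18 at 156026342 to 156028891, both plus strand), and 27.2% of the exon bases of Tnfrsf18 are shared with the antisense transcript Gm16008 in GENCODE M21.

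Lrrc32 was lower by the smallest step of the genes that fell, and its mutant values were the most even. It stood at 6.78, 7.40 and 5.86 CPM in mutant spleens, against 11.3, 12.4, 11.3 and 17.3 CPM in wild-type spleens. The groups did not overlap, and the log2 fold change was -0.97 (SE 0.23, adjusted p = 0.00866, edgeR). The highest mutant was 1.26 times the lowest, compared with 2.61 to 11.3 times for the other 6 genes. Lrrc32 lies on chromosome 7 (98494222 to 98501830, plus strand).

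Itgae fell by an amount that differed widely between mutants. It stood at 6.76, 0.599 and 2.51 CPM in mutant spleens, against 13.0, 10.8, 13.5 and 13.5 CPM in wild-type spleens. All mutants were below all wild types, with the lowest in mutant 2, and the log2 fold change was -1.94 (SE 0.67, adjusted p = 0.0392, edgeR). The call was lost without mutant 3 (-1.78) and without wild-type 1, 2, 3 or 4 (-2.02 to -1.92), with adjusted p of 0.0582 to 0.0957 (range 0.00368 to 0.0957 over its alternatives). Without mutant 1 the change was -2.95. Itgae (chromosome 11, 73090595 to 73147449, plus strand) contains Gsg2, a mitotic kinase gene on the other strand, and shares 0 exon bases with it. Gsg2 went the other way, at 25.7, 42.7 and 36.6 CPM in mutant and 11 to 19.5 CPM in wild-type spleens.

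Ctla4 and Gpr83 had higher means in the mutant, with mutant 2 inside or below the wild-type range. Ctla4 stood at 31.9, 8.04 and 29.0 CPM in mutant spleens, against 9.23, 12.2, 13.9 and 10.3 CPM in wild-type spleens. Mutants 1 and 3 were above every wild type and mutant 2 was below every wild type. The log2 fold change of Ctla4 was 1.01 (SE 0.43, adjusted p = 0.0771, edgeR) and did not pass the threshold. Without mutant 2 it was 1.4 and passed (adjusted p = 0.00348, range 0.00348 to 0.282 over its alternatives). Gpr83 stood at 5.61, 2.22 and 8.43 CPM in mutant spleens, against 1.66, 1.67, 2.48 and 2.98 CPM in wild-type spleens. Mutants 1 and 3 were again the high ones, and mutant 2 lay within the wild-type range. Gpr83 passed at 1.29 (SE 0.46, adjusted p = 0.0422, edgeR), but lost the call when any library other than mutant 2 was left out, at 0.83 without mutant 3 and up to 1.47 without wild-type 4 (adjusted p 0.0521 to 0.135, range 0.00883 to 0.135 over its alternatives). Ctla4 lies on chromosome 1 (60909025 to 60915832) and Gpr83 on chromosome 9 (14860254 to 14869499), both on the plus strand.

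**Figure D1:**
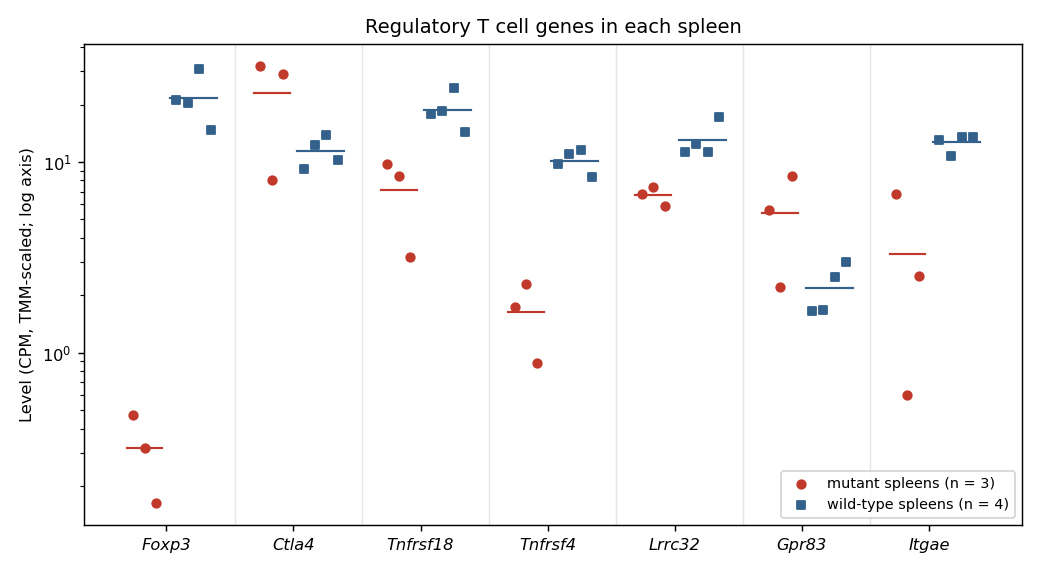
Levels of the 7 regulatory T cell genes in each spleen, in TMM-scaled CPM on a log axis, with mutant spleens as circles on the left of each gene and wild-type spleens as squares on the right, in the order of their numbers; lines are group means. Foxp3 spans 0.163 to 0.474 CPM in mutants, below the wild-type span of 14.7 to 30.8 CPM, and mutant 2 is the low circle for Ctla4, Gpr83 and Itgae.

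By count, all 7 genes passed the filter on low counts, 5 were called lower and 1 higher, and the groups did not overlap for the 5 that were lower and for 0 in the other direction. Over all genes tested, 28.9% were called lower, 28.5% were called higher, 32.6% had every mutant below every wild type and 29.2% every mutant above, 61.7% in all. The median log2 fold change was -1.39 over the 7 genes and -0.02 over all genes tested. The SD of log2 CPM among mutants was 0.17 for Lrrc32, 0.70 to 1.11 for Foxp3, Ctla4, Tnfrsf18, Tnfrsf4 and Gpr83, and 1.74 for Itgae, beside a median of 0.402 over all genes tested. Among wild types it was 0.15 to 0.44, beside a median of 0.206.

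Per kilobase of exon, the order of the genes differed between the groups. Lengths are merged GENCODE M21 exons, which may differ from the exons the counts were made on. In mutant spleens the level was highest for Ctla4 at 9.87 ± 5.59 CPM per kb, then Tnfrsf18 at 4.68 ± 2.29, Lrrc32 at 1.43 ± 0.165, Tnfrsf4 at 1.2 ± 0.521, Gpr83 at 1.06 ± 0.610, Itgae at 0.718 ± 0.689 and Foxp3 at 0.0695 ± 0.034 CPM per kb. The ranges of neighbours in that order overlapped, except between Tnfrsf18 and Lrrc32 and between Itgae and Foxp3. In wild-type spleens the order was Tnfrsf18 at 12.3 ± 2.68, Tnfrsf4 at 7.45 ± 1.08, Ctla4 at 4.89 ± 0.881, Foxp3 at 4.75 ± 1.47, Lrrc32 at 2.79 ± 0.609, Itgae at 2.78 ± 0.283 and Gpr83 at 0.431 ± 0.128 CPM per kb (SD). There, Ctla4 and Foxp3, Foxp3 and Lrrc32, and Lrrc32 and Itgae had overlapping ranges. Foxp3 was thus the lowest of the 7 per kilobase in mutant spleens and the fourth in wild-type spleens.

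The decrease of Foxp3 stood beside higher levels of general T cell genes. The summed level of Cd3d, Cd3e and Cd3g, subunits of the T cell receptor complex, was 388, 1103 and 844 CPM in mutant spleens, against 228, 201, 259 and 192 CPM in wild-type spleens. Each of the 3 rose, by 1.92 (SE 0.30), 1.73 (SE 0.33) and 1.83 (SE 0.36) on the log2 scale. As a percentage of that sum, Foxp3 came to 0.122, 0.0288 and 0.0193 in mutant spleens and to 7.66 to 11.9 in wild-type spleens. Cd4, the coreceptor of regulatory T cells and of other helper cells, stood at 89.2, 123 and 59.2 CPM in mutant spleens and 147 ± 26.2 CPM in wild-type spleens (-0.70, SE 0.26, adjusted p = 0.0506, edgeR).

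Set against the mean log2 CPM of the CD3 genes in the same spleen, 5 genes separated the groups and Ctla4 and Gpr83 did not. On this scale 67% of all genes tested had every mutant below every wild type, with a median difference of -1.77, so the count of 5 is near that of genes in general. The difference, mutant minus wild type, was -7.81 for Foxp3, -4.42 for Tnfrsf4, -4.24 for Itgae, -3.23 for Tnfrsf18 and -2.65 for Lrrc32 on the log2 scale. For each of these every mutant was below every wild type (exact permutation p = 0.0571, two-sided, the smallest that 3 against 4 spleens allow). Ctla4 was at -2.02, -5.50 and -3.27 in mutant spleens and at -3.03, -2.45, -2.63 and -2.62 in wild-type spleens, a difference of -0.91 (exact permutation p = 0.457). Gpr83 differed by -0.56 (exact permutation p = 0.686). For both, mutant 1 was the highest mutant and mutant 2 lay below every wild type. Their differences were 0.04 and 0.30 without mutant 2. Relative to Cd4 in place of the CD3 genes they were 1.54 for Ctla4 and 1.89 for Gpr83, and Lrrc32 stood at -0.20 and Tnfrsf18 at -0.78, so these values depend on which T cell genes are the base. Relative to Cd4, Foxp3 (-5.37), Tnfrsf4 (-1.98) and Tnfrsf18 separated the groups, whereas Itgae (-1.79, exact permutation p = 0.114) and Lrrc32 no longer did. On that scale 15.1% of all genes had every mutant below every wild type, with a median difference of 0.68.

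**Figure D2:**
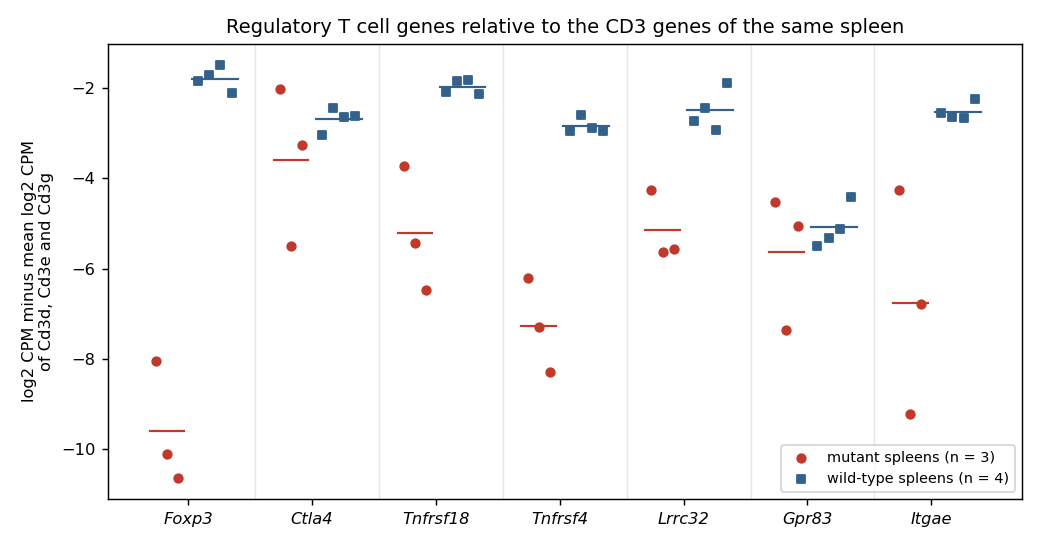
Level of each regulatory T cell gene relative to the CD3 genes of the same spleen, as log2 CPM minus the mean log2 CPM of Cd3d, Cd3e and Cd3g, for 3 mutant spleens (circles, left of each gene) and 4 wild-type spleens (squares, right); lines are group means. Foxp3 averages -9.60 in mutants and -1.79 in wild type, while Ctla4 and Gpr83 overlap between the groups.

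Other genes of the regulatory T cell programme went both ways. A list of 24 further genes linked to these cells was chosen with earlier results of these data known, as were the other lists. All 24 were tested. Of these, 16 fell and 4 rose, beside 28.9% and 28.5% of all genes tested, and their median log2 fold change was -2.27, beside -0.02 over all genes. Those that rose were Il2ra, Ikzf2, Nrp1 and Ccr4. Il2ra (CD25), the high-affinity chain of the IL-2 receptor and the surface marker used to sort regulatory T cells, stood at 28.5, 233 and 1222 CPM in mutant spleens, against 15.1, 15.1, 15.8 and 15.3 CPM in wild-type spleens. Wild types were nearly equal while mutants differed widely, and the log2 fold change was 5.01 (SE 1.04, adjusted p = 0.00481, edgeR), or 3.12 without mutant 3. Ikzf2 (Helios), an Ikaros family factor of regulatory and developing T cells, stood at 182, 227 and 182 CPM in mutant spleens and 30.6 ± 7.63 CPM in wild-type spleens (2.68, SE 0.21, adjusted p = 1.70e-04, edgeR). Nrp1, a semaphorin receptor, rose by 1.57 (SE 0.35), and Ccr4, a chemokine receptor, by 2.92 (SE 0.19). Il2ra and Ikzf2 are commonly used beside Foxp3 to mark regulatory T cells, and both rose in the spleens in which Foxp3 fell. Of 12 immature T cell genes, 11 rose in the same spleens, and which cells carried Il2ra and Ikzf2 was not tested.

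Among the 16 that fell, Nt5e (CD73), which makes adenosine from AMP, stood at 0.949, 1.45 and 1.27 CPM in mutant spleens and 22.8 ± 4.52 CPM in wild-type spleens (-4.23, SE 0.28). Klrg1, a receptor of effector T cells and NK cells, fell by 6.06 (SE 0.40) on the log2 scale. Entpd1 (CD39), the enzyme upstream of Nt5e, fell by 2.39 (SE 0.52), Ebi3, a subunit of the cytokine IL-35, by 3.48 (SE 0.39), Tigit, an inhibitory receptor, by 2.84 (SE 0.33), and Icos, a costimulatory receptor, by 1.43 (SE 0.34); these 4 were picked after their values were seen. The 4 genes that were not called were Il10, Ikzf4, Socs2 and Izumo1r (listed as Folr4), the last at 28.3, 23.9 and 25.2 CPM in mutant spleens and 22.9 ± 5.49 CPM in wild-type spleens. Many of these genes are also expressed by B cells, myeloid cells or NK cells, whose markers were lower in the same spleens, and the part of those cells in each value was not tested.

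Ligands, partner chains and signalling adaptors of the surface proteins among the 7 genes were tested as a list of 14. Of these, 9 fell and 2 rose, beside 28.9% and 28.5% of all genes tested, and the median log2 fold change was -1.11, beside -0.02 over all genes. Of the Ctla4 ligands, which antigen-presenting cells carry, Cd86 stood at 45.3, 36.0 and 6.25 CPM in mutant spleens and 107 ± 15.5 CPM in wild-type spleens and fell (-1.87, SE 0.58, adjusted p = 0.0252, edgeR), a call lost without mutant 2 (-2.06), wild-type 3 (-1.86) or wild-type 4 (-1.79). Cd80 stood at 9.96, 8.64 and 1.17 CPM in mutant and 10.1 to 13.9 CPM in wild-type spleens and was not called (-0.82, SE 0.61, or -0.32 without mutant 3). Cd28, the receptor that shares these ligands with Ctla4, rose by 1.22 (SE 0.18).

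The ligands of the TNF receptors were scarce in all spleens. Tnfsf4, the ligand of Tnfrsf4, stood at 1.55, 5.50 and 0.488 CPM in mutant spleens and 0.106 to 0.528 CPM in wild-type spleens. It was called higher (2.91, SE 0.86, adjusted p = 0.0208, edgeR) although mutant 3 lay within the wild-type range, and lost the call without mutant 2 (1.62), wild-type 1 (2.66) or wild-type 2 (2.74). Tnfsf18, the ligand of Tnfrsf18, stood at 0.495, 0.916 and 0.0651 CPM in mutant and 0.907 to 1.44 CPM in wild-type spleens and was not called (-1.19, SE 0.66), with -1.93 without mutant 2 and -0.68 without mutant 3. The adaptors that carry TNF receptor signals, Traf1, Traf3 and Traf5, fell by 4.42 (SE 0.51), 1.47 (SE 0.16) and 1.81 (SE 0.25). Itgb7, the partner chain of Itgae, stood at 95.1, 27.9 and 78.7 CPM in mutant spleens and 210 ± 39.4 CPM in wild-type spleens and fell (-1.64, SE 0.40, adjusted p = 0.00984, edgeR), with mutant 2 lowest as for Itgae. Cdh1, the gene of E-cadherin, stood at 0.577, 0.352 and 13.6 CPM in mutant and 2.44 to 4.29 CPM in wild-type spleens. It was not called (0.44, SE 1.09). Itgb8, the integrin chain that frees TGF-beta held by Lrrc32, had 1 count over the mutant spleens and 101 counts over the wild-type spleens.

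Of 28 tested regulators of Foxp3, 12 were lower and 8 higher, beside 28.9% and 28.5% of all genes tested, so the share that rose was near that of all genes. Their median log2 fold change was -0.48, beside -0.02 over all genes. IL-2 signalling through Stat5 sustains Foxp3 in regulatory T cells. Il2 itself had 0 counts in the mutant spleens and 32 in the wild-type spleens and was too low to test. The limit that 0 counts allow was set at 3 counts over all mutant spleens (0.0279 CPM). That limit is 6.51-fold below the pooled wild-type level of 0.182 CPM, with the counting error of wild type left out. Of the 32 wild-type counts, 21 came from wild-type 4 (0.277 CPM), and the other wild types stood at 0.106 to 0.111 CPM. The receptor chains Il2rb and Il2rg stood at 15.2 to 55.1 and 144 to 204 CPM in mutant spleens, against 115 to 148 and 308 to 462 CPM in wild-type spleens, and both fell. Stat5a and Stat5b rose by 1.53 (SE 0.17) and 0.41 (SE 0.14), and Stat5b lost its call without mutant 2 (0.27) or any wild-type library (0.38 to 0.44).

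Of the TGF-beta pathway, which can induce Foxp3 in mature T cells, the receptor gene Tgfbr2 fell by 1.88 (SE 0.15) and the signal carrier Smad3 rose by 1.24 (SE 0.31), or 0.77 without mutant 3. Tgfbr1 (-0.34, SE 0.16), Smad2 (-0.06, SE 0.14) and Smad4 (-0.36, SE 0.18), of the same pathway, were not called. Bach2, a repressor that maintains naive and regulatory T cells and is also high in B cells, stood at 7.44, 8.42 and 5.6 CPM in mutant spleens and 120 ± 16 CPM in wild-type spleens (-4.07, SE 0.21). Tet2, an enzyme of DNA demethylation, fell by 1.94 (SE 0.17), and Dnmt1, which maintains DNA methylation, rose by 1.51 (SE 0.24). The factors Gata3, Runx1, Cbfb and Satb1, which act in developing T cells as well as on Foxp3, rose by 3.09 (SE 0.26), 1.08 (SE 0.26), 0.71 (SE 0.25) and 0.98 (SE 0.20). Cbfb lost its call without mutant 2 or 3 or wild-type 1, 2 or 3 (0.51 to 0.71). Other factors of this list were lower, namely Rel (-4.12, SE 0.45), Nr4a3 (-3.3, SE 0.61), Foxo1 (-1.63, SE 0.22) and Nfatc1 (-1.35, SE 0.17). So were Jak3 (-1.14, SE 0.15), Tet3 (-0.62, SE 0.12) and, near the threshold, Nr4a1 (-0.7, SE 0.26, adjusted p = 0.0489, edgeR). Jak1, Foxo3, Runx3, Nfatc2 and Ets1 were not called.

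**Figure D3:**
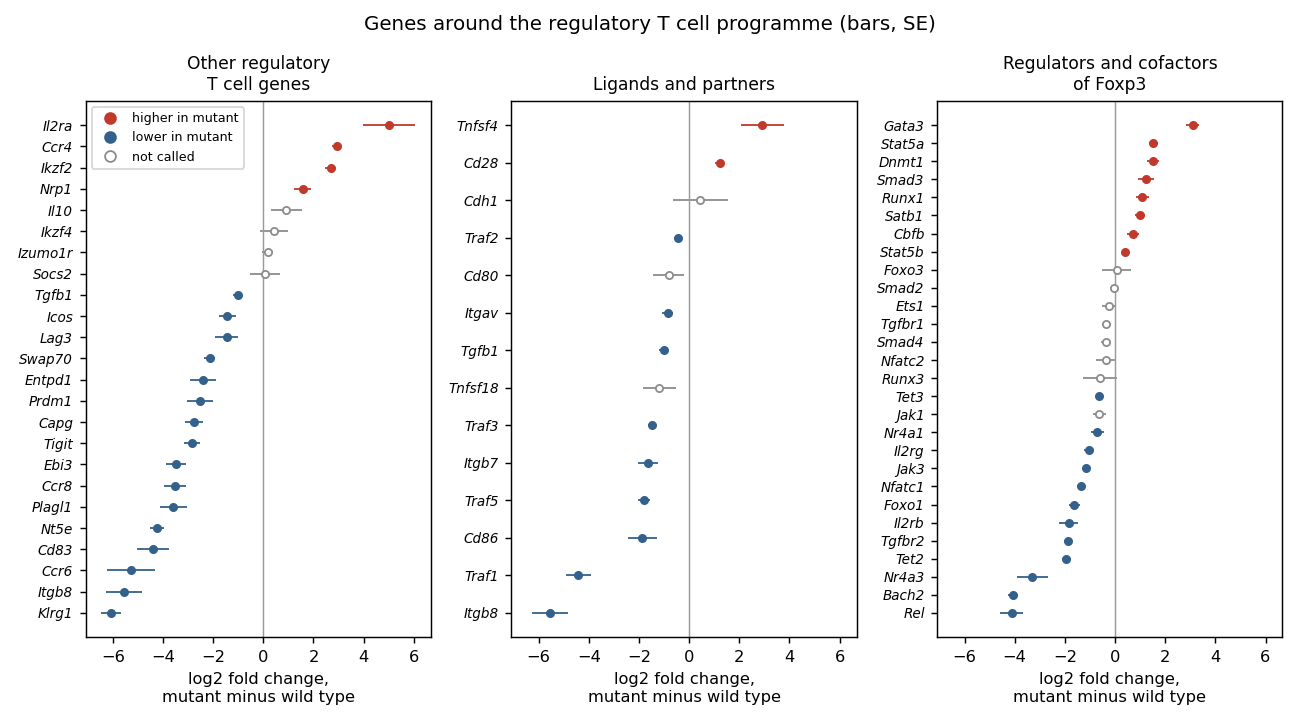
Log2 fold changes (mutant minus wild type) with SE from edgeR for 24 other regulatory T cell genes, 14 ligands and partners and 28 regulators of Foxp3, with 3 mutant and 4 wild-type spleens; filled points passed an adjusted p of 0.05 and open points did not. Il2ra, Ccr4, Ikzf2 and Nrp1 are the called genes on the right of the first panel, against 16 on the left.

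Most general and immature T cell genes were higher in the mutant, and most tested genes of the other cell type lists were lower. Of all genes tested, 28.5% were called higher and 28.9% lower. The 16 general T cell genes summed to 2578 to 4693 CPM in mutant spleens and 1202 to 1626 CPM in wild-type spleens, with 11 higher, among them Lck and Lat, kinase and adaptor of the T cell receptor, at 2.21 (SE 0.31) and 2.28 (SE 0.34). The 12 immature T cell genes summed to 3220 to 6211 CPM in mutant and 501 to 628 CPM in wild-type spleens, with 11 higher, and Tcf7 and Notch1, factors of early T cell development, rose by 3.41 (SE 0.26) and 3.48 (SE 0.30). Of 6 thymic epithelium genes, Foxn1 and Krt5 had 0 counts in all libraries, and of the 4 tested Psmb11, Aire and Prss16 were lower and Ccl25, a chemokine, was higher (1.22). The list summed to 4.85 to 6.12 CPM in mutant and 4.96 to 5.76 CPM in wild-type spleens.

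Most tested genes of the activated and effector T cell list were lower, as Foxp3 was. The 16 genes summed to 232, 141 and 63.5 CPM in mutant spleens and 659 to 811 CPM in wild-type spleens. Cd44 and Cxcr5 held much of the wild-type sum, at 224 ± 12 and 233 ± 48.2 CPM. Of 14 tested, 11 fell and 1, Pdcd1, rose, beside 28.9% and 28.5% of all genes tested. Cxcr5 and Bcl6, the receptor and factor of follicular helper T cells that B cells share, fell by 4.81 (SE 0.52) and 2.21 (SE 0.23). Cd44, an adhesion receptor of activated cells, was not called (-1.45, SE 0.54, adjusted p = 0.0506, edgeR).

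CD8+ T cells and dendritic cells can carry Itgae. Cd8a, which encodes a chain of the CD8 coreceptor, stood at 330, 267 and 502 CPM in mutant spleens and 122 ± 16.6 CPM in wild-type spleens and rose (1.59, SE 0.23, adjusted p = 0.00111, edgeR), as did Cd8b1 (1.67, SE 0.36), while Itgae fell. The 10 genes of type 1 dendritic cells summed to 134, 74.1 and 38.6 CPM in mutant spleens and 579 to 743 CPM in wild-type spleens, with 9 lower, among them Irf8 at -3.29 (SE 0.56), Itgax at -4.41 (SE 0.67) and Cadm1 at -2.19 (SE 0.45). For Lrrc32, the 12 megakaryocyte and platelet genes summed to 128, 109 and 17.8 CPM in mutant and 307 to 398 CPM in wild-type spleens, with 9 lower, and the 10 endothelium genes to 475, 349 and 318 CPM in mutant and 705 to 837 CPM in wild-type spleens, all 10 lower. B cell genes summed to 43.1 to 243 CPM in mutant and 4397 to 5857 CPM in wild-type spleens with all 10 lower. NK cell genes summed to 2.68 to 15.7 CPM in mutant and 138 to 189 CPM in wild-type spleens with 7 of 8 lower. These counts stand beside 28.9% called lower over all genes tested. The part of any of these cells in the values of the 7 genes was not tested.

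**Figure D4:**
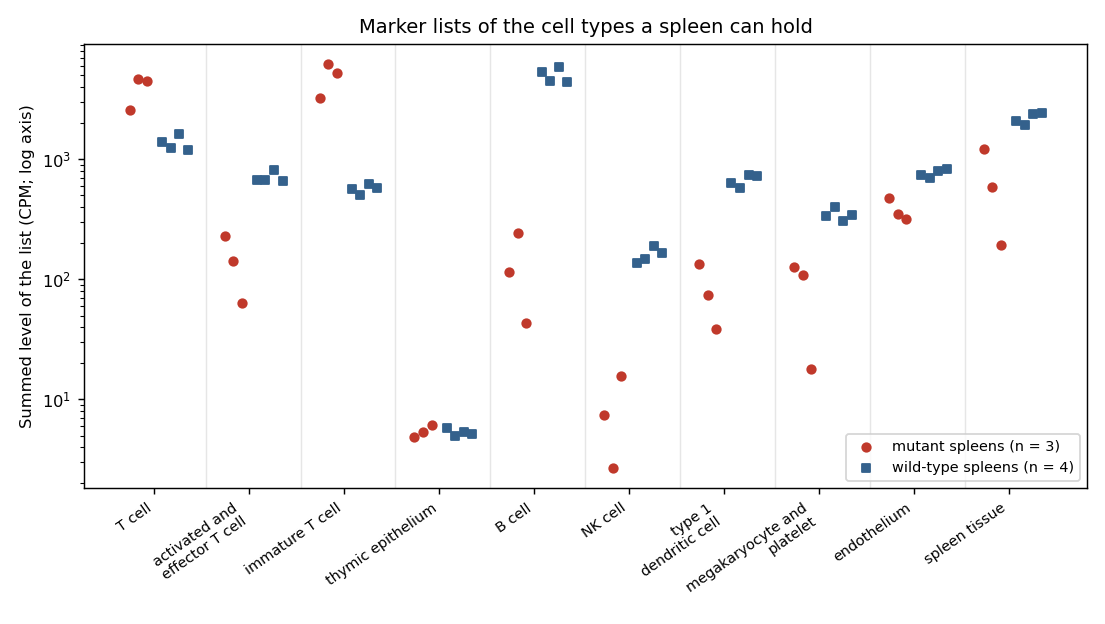
Summed CPM (log axis) of the marker lists of 10 cell types or tissues in each spleen, mutant spleens as circles on the left and wild-type spleens as squares on the right. T cell and immature T cell sums are higher in all 3 mutants than in any wild type, thymic epithelium sums lie at 4.85 to 6.12 CPM in mutants and 4.96 to 5.76 CPM in wild type, and the other sums are lower in mutants.

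The genes whose profile over the 7 libraries was most like that of Foxp3 were sought by the root mean square difference of log2 CPM centred on each gene's mean, among all genes tested. They were S1pr5 (0.37), a sphingosine receptor of NK cells, Slc8a2 (0.37), a sodium and calcium exchanger, A530032D15Rik (0.42), Il18r1 (0.43), a chain of the IL-18 receptor, and Cyp4f18 (0.44), a leukotriene-oxidising enzyme. All 5 fell, with log2 changes of -6.33 to -5.40. Profiles were centred but not scaled, so the measure itself picks genes that fell by about as much as Foxp3. S1pr5 stood at 0.186, 0.0705 and 0.0326 CPM in mutant spleens and 8.63 ± 0.914 CPM in wild-type spleens. Of the other 6 genes, Tnfrsf4 was closest to Foxp3 at 1.71, as number 1030 of the 15187 genes compared. Gpr83 was farthest at 3.70, as number 13188.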

How the data were processed

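Total RNA of whole mouse spleens was sequenced, 3 mutant and 4 wild type. The submitters' processing notes name Subread 1.4.6 with featureCounts, TopHat2 2.0.12, bcl2fastq 2.17.1.14, edgeR and build mm10. The order of the tools, their settings and any use of strand were not given in the sources used here. Deposited were the authors' raw counts for each gene and a table of CPM, which equals the deposited counts times 1 constant per library. The deposited gene starts count from 0, and 1 was added.

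All genes were fitted with edgeR 4.0.16 in R 4.3.3 (quasi-likelihood test, TMM, filterByExpr, group as the only term), with Benjamini-Hochberg adjustment over 15188 genes and calls at an adjusted p under 0.05. The script was tested on simulated data. The SE was taken as the size of the log2 change over the root of the F statistic. CPM use the TMM factors. Levels relative to CD3 used a prior count of 0.5 and an exact permutation test. Alternatives used DESeq2 1.42.0, limma 3.58.1, other scalings and filters, a replicate block and each library left out.

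The 7 genes and 14 lists were chosen with earlier results of these data known. Of 175 list and member genes, 174 matched by symbol and 1 by a RefSeq synonym (Folr4). The genes named are the 7 and, in each pathway list, the 4 called genes of smallest p and those called against the majority. Over the 3 pathway lists together, 8 genes were preset. Also named are up to 3 of the highest by CPM in each cell type list, and the 5 most like Foxp3. Others were added after their values were seen, to complete the list of Foxp3 regulators, to give some uncalled or overlapping genes, or as examples. Intervals and floors cover counting error only, because no molecular identifiers separate PCR copies. No replicate pairing was used.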

Additional observations from a re-analysis of the deposited data

How the results depend on the processing

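Foxp3 and Tnfrsf4 kept their direction and call under all 16 alternatives, at -6.40 to -4.07 and -2.97 to -2.11 on the log2 scale. Leaving out 1 library gave 4 to 5 genes lower and 0 to 2 higher, with ranges of -6.40 to -5.74 for Foxp3, 0.77 to 1.4 for Ctla4, -1.59 to -1.03 for Tnfrsf18, -2.97 to -2.33 for Tnfrsf4, -1.07 to -0.81 for Lrrc32, 0.83 to 1.65 for Gpr83 and -2.95 to -1.47 for Itgae, and 1 to 2 ligands and partners higher. Gpr83 was not called with library size alone (1.01), limma-voom (1.12) or limma on the deposited CPM after adding 1 (0.90) or 0.1 (1.12) and taking log2, which left 0 genes called higher (0 at an unadjusted p under 0.05 with library size alone and 1 in each limma fit). DESeq2 called 2 higher, with Ctla4 at 1.04. Ligands and partners called higher were 1 in place of 2 with a minimum of 1 CPM, with CPM plus 1 and with the replicate block. The minimum of 1 CPM in at least 3 libraries removed Tnfsf4 before testing, since only mutants 1 and 2 reached that level. Library size alone placed the median of all genes at -0.26 in place of -0.02, and the directions of the 7 genes were the same under each scaling.

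Deviations from the group means correlated at 0.0181, -0.17 and 0.0871 across genes for replicate numbers 1 to 3. These values gave no sign of pairing by number. They cannot show whether animals were matched, because genes are not independent replicates. With the replicate block, 3 genes were lower and 0 higher (1 at an unadjusted p under 0.05) in edgeR, with Tnfrsf18 at -1.62, Lrrc32 at -0.81 and Gpr83 at 1.33 not called, 5 in place of 8 regulators of Foxp3 higher, and 3140 genes lower and 2950 higher over all genes. Relative to Cd4, Ctla4 and Gpr83 turned to 1.54 and 1.89, and without mutant 2 they were 0.04 and 0.30 relative to the CD3 genes; those 2 genes ranged from -1.70 to 0.04 and -1.12 to 0.30 with a library left out. The cause of these shifts was not tested. In mutant spleens Foxp3 rests on 5 to 23 counts, which limits its fold change more than its direction.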
